A study of Danio rerio with 2 samples.

Results

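The long arm of zebrafish chromosome 4 was described here as the windows of 1 kb from position 30000001 to the end of the chromosome on the build GRCz11, chosen by position alone. There were 48094 such windows of 1345132 in each signal track (3.58%), and the remaining 30000 windows of chromosome 4 served as their comparison. The tracks came from whole bodies of wild-type larvae, with 1 library from larvae exposed to valbenazine at 10 µM and 1 from larvae kept in the solvent DMSO, each a pool of 50 larvae. Valbenazine inhibits the vesicular monoamine transporter, which fills synaptic vesicles with dopamine, serotonin and related transmitters. The sources used here do not give the larvae's age or the length of exposure. The tracks carry no gene names, so the labelled tissue was not checked against marker genes. With 1 library per group there was no replicate error to compare with, so each difference below is between 2 libraries and carries no test.

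The long arm of chromosome 4 is an unusual stretch of the zebrafish genome. It is heterochromatic, replicates late, is dense in repeats and satellite sequence, and carries large arrays of genes for 5S ribosomal RNA, transfer RNA and the small nuclear RNAs of the spliceosome. Its protein-coding genes belong largely to multigene families such as zinc finger proteins and NLR immune receptors, and in wild strains the arm is linked to sex determination. These families have many near-identical copies, and the sources used here do not say how reads matching several places were handled. Late replication was not measured by these tracks.

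A gene table of another assembly, RefSeq's GRCz12tu, gives the kinds of genes on the chromosome as a whole, without placing any gene on the windows. Chromosome 4 held 3997 of the 4111 ribosomal RNA genes listed for the numbered chromosomes (97.2%), 5683 of 8430 transfer RNA genes (67.4%), 975 of 1283 small nuclear RNA genes (76.0%) and 168 of 378 pseudogenes (44.4%), but 1830 of 27026 protein-coding genes (6.77%). In the order of that table, 100% of the chromosome's ribosomal RNA genes, 99.9% of its transfer RNA genes and 99.8% of its small nuclear RNA genes came after the first 610 protein-coding genes. Of those first 610 genes 11.0% had no name beyond a locus number, against 79.5% of the 1220 protein-coding genes that followed and 15.2% on the other chromosomes.

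RNA signal was sparse on the long arm in both libraries. In valbenazine 22970 of its windows (47.8%) had any depth and in DMSO 20198 (42.0%), against 72.8% and 70.9% of the windows of chromosome 4 below 30 Mb. The summed depth of the arm was 146209.5 in valbenazine and 119356 in DMSO, which is 0.237% and 0.203% of each library's total, although the arm makes up 3.58% of all windows. A window of the arm had a mean depth of 3.04 in valbenazine and 2.48 in DMSO, against 41.0 and 34.2 below 30 Mb. The depth is a value per window with an unknown number of reads behind it, and neighbouring windows can carry the same reads, so no counting interval is given for these shares.

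The arm was not uniform. Its first 40 Mb, to position 70000000, were sparsely covered, and the last 8.094 Mb were covered about as often as chromosome 4 below 30 Mb. In the first 40 Mb 41.7% of windows were covered in valbenazine and 35.6% in DMSO, while from 70000001 to the end the shares were 77.9% and 73.6%. Mean depth per window was 1.51 and 1.12 in the first 40 Mb, which is 27.2 and 30.4 times lower than below 30 Mb in the same library. From 70000001 it was 10.6 and 9.19, or 3.86 and 3.72 times lower. The last part thus had a covered share near that of the windows below 30 Mb, with less depth per window. The split at 70 Mb was drawn with these values known.

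**Figure D1:**
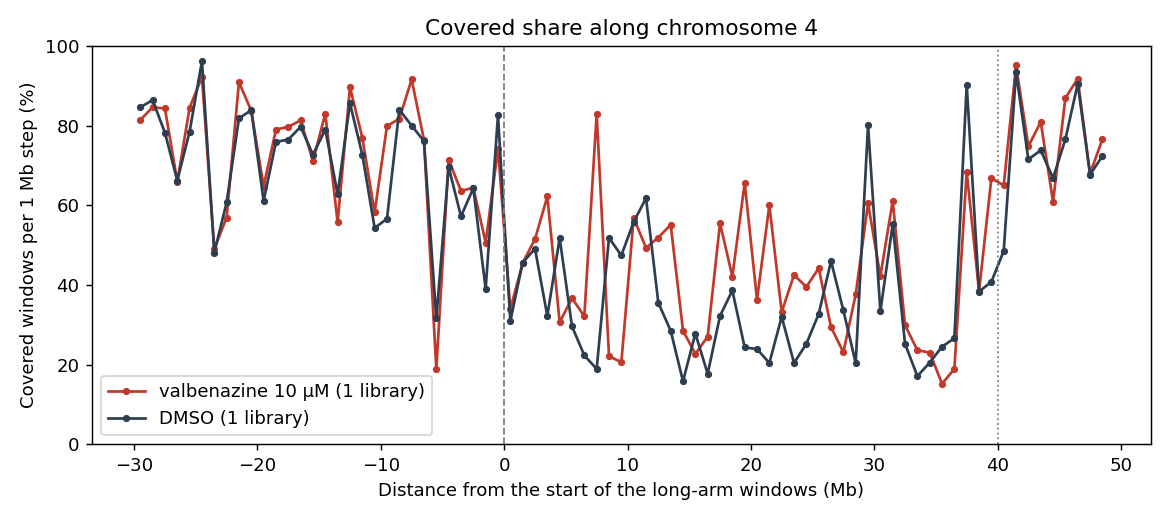
Share of covered 1 kb windows in each 1 Mb step of chromosome 4, in percent, against the distance of the step from the start of the long-arm windows. Red marks valbenazine and dark blue DMSO (1 library each), the dashed line is the start of the arm and the dotted line lies 40 Mb into it. Within the first 40 Mb the steps lie between 15.2% and 83.0% in valbenazine and between 15.8% and 90.3% in DMSO, and the libraries often part.

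Where windows of the arm were covered, the depth was low. The lowest value above 0 in the tracks is 1. Of the covered windows in the first 40 Mb, 39.5% in valbenazine and 39.2% in DMSO had a depth of exactly 1, against 8.35% and 11.6% below 30 Mb. A depth of 10 or more was reached by 8.54% of the covered windows in valbenazine and 3.51% in DMSO, against 61.1% and 55.2% below 30 Mb. The median depth of covered windows was 2 in both libraries in the first 40 Mb and 4 in both from 70000001, against 16 in valbenazine and 11 in DMSO below 30 Mb. A depth of 100 or more was found in 17 windows in valbenazine and 18 in DMSO among the 40000 windows of the first 40 Mb, and in 142 and 125 of the 8094 windows that follow.

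**Figure D2:**
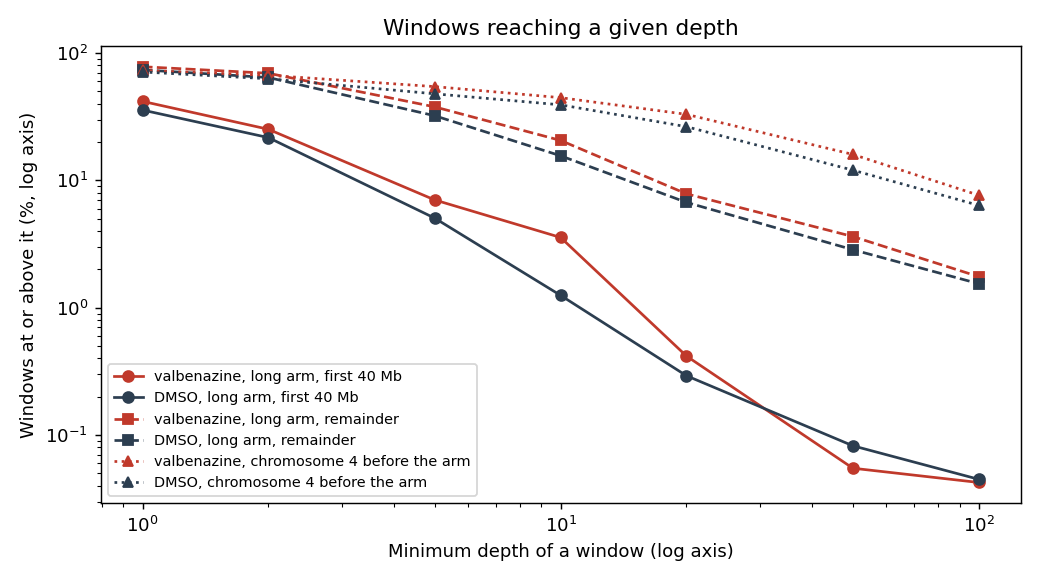
Percent of windows that reach a minimum depth, against that depth, both on log axes. Red is valbenazine and dark blue DMSO (1 library each), with solid lines for the first 40 Mb of the arm, dashed lines for its remainder and dotted lines for chromosome 4 before the arm. At a minimum of 1 the last part of the arm lies level with the chromosome before it, at 77.9% and 73.6%, while at 100 it has 1.75% in valbenazine and 1.54% in DMSO against 7.64% and 6.36%.

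The limit at 30 Mb came after most of the decline in depth. The 2 steps just outside the rule, which begin at 28000001 and 29000001, had a summed depth of 2805 and 2652.5 in valbenazine and of 2026 and 2146 in DMSO. The 2 steps just inside, from 30000001 and 31000001, had 1214.5 and 1886.5 in valbenazine and 895.5 and 1700.5 in DMSO. The step from 27000001 still had 13258.5 in valbenazine and 12319.5 in DMSO, so the drop at 28 Mb was larger than that at 30 Mb. Covered shares were uneven across the limit, with 74.2% in valbenazine and 82.6% in DMSO in the step from 29000001 and 33.9% and 30.9% in the step from 30000001.

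Across the 40 steps of 1 Mb in the first 40 Mb, the summed depth of a step ranged from 385 to 7288 in valbenazine, with a median of 1075, and from 421 to 5347 in DMSO, with a median of 799.5. Below 30 Mb the median of 30 steps was 28315 in valbenazine and 21054.25 in DMSO. Of these 40 steps, 36 in valbenazine and 35 in DMSO had less depth than any step of chromosome 4 below 30 Mb. On the other numbered chromosomes, 8 of 1258 whole steps in valbenazine and 6 in DMSO were as shallow as the median step of the first 40 Mb. Among the 40 shallowest whole steps of the genome, 30 lay on the long arm in valbenazine and 30 in DMSO. By covered share more steps elsewhere were as low: 77 of the 1258 steps in valbenazine and 49 in DMSO were covered no more than its median step.

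The deepest step of the first 40 Mb was the one from 59000001 in both libraries, with 7288 in valbenazine and 5347 in DMSO. The shallowest was the step from 65000001 in valbenazine, with 385 there and 494.5 in DMSO, and the step from 63000001 in DMSO, with 532.5 in valbenazine and 421 in DMSO. The highest covered share in DMSO was 90.3%, in the step from 67000001, where valbenazine had 68.4%. In valbenazine the highest share was 83.0%, in the step from 37000001, where DMSO had 18.9%. A high share did not mean much depth there, since that step summed to 1100 in valbenazine over 1000 windows.

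From 70000001 the depth climbed again. The 8 whole steps had a summed depth of 2685.5 to 17275 in valbenazine and 1786 to 14292 in DMSO, with the lowest at 70000001 and the highest at 74000001 in both libraries. The last 94 windows of the chromosome alone summed to 11775 in valbenazine and 11465.5 in DMSO, because they hold the deepest run of the arm.

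To compare the libraries, both tracks were scaled to the same summed depth. In RNA of whole larvae, fewer cells of a type and less RNA per cell cannot be told apart. The long arm as a whole then had a log2 ratio of valbenazine to DMSO of 0.22, beside 0.19 for chromosome 4 below 30 Mb, 0.35 for the first 40 Mb of the arm and 0.14 for the remainder. Another scaling turned the sign. When the windows covered in both libraries were given a median ratio of 1, every log2 ratio of summed depth moved by -0.32 and the whole arm was at -0.10. With a trimmed mean of log ratios (TMM) the whole arm was at -0.09. The covered share of the arm was 5.76 percentage points higher in valbenazine, against 1.98 points below 30 Mb and 3.67 points on the other numbered chromosomes. These shares count depth as deposited, without scaling, and the valbenazine track has the larger total (61750003.5 against 58693226.5 in DMSO). Counting only covered windows unlike both neighbours in both libraries, the arm's shares were 4.03% in valbenazine and 3.97% in DMSO. Such a filter drops a window where either library repeats a neighbour's value, also at 0. It thus removes windows covered in 1 library within a stretch empty in the other, so these near-equal shares are set in part by the filter.

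Single steps of the first 40 Mb differed between the libraries by widely varying amounts. Of its 40 steps, 26 had more scaled depth in valbenazine and 14 less, with log2 ratios between -1.76 and 2.07 and a median of 0.27. The majority turned with the scaling, since median-ratio and TMM scaling each left 19 steps higher and 21 lower. At equal summed depth 11 of the 40 steps (27.5%) differed by at least 2-fold, with 8 higher and 3 lower in valbenazine. This was seen in 0 of 30 steps below 30 Mb, 0 of the 8 whole steps from 70000001 and 7 of 1258 (0.556%) on the other numbered chromosomes. Under either of the other scalings 6 of the 40 steps (15%) differed so, with 3 higher and 3 lower, against 0 of 30, 0 of 8 and 4 of 1258. Below 30 Mb the ratios lay between -0.18 and 0.58, and from 70000001 between -0.01 and 0.52. The steps of the first 40 Mb were also far shallower, with median summed depths of 1075 in valbenazine and 799.5 in DMSO. On the other numbered chromosomes these medians were 24653.25 and 19739.75. Steps of like depth were not compared, so whether the wider spread goes beyond that of shallow steps elsewhere was not tested. As a description of how alike the libraries were, the Pearson correlation of log2 summed depth over steps was 0.60 in the first 40 Mb (40 steps), 0.996 from 70000001 (8 steps) and 0.993 below 30 Mb (30 steps). Spearman's rho was 0.51, 0.98 and 0.99. For the covered share Pearson's r was 0.32, 0.87 and 0.91, and Spearman's rho 0.27, 0.98 and 0.87. The points are steps of the same 2 libraries and not samples, and the range of depth differs between the sets.

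**Figure D3:**
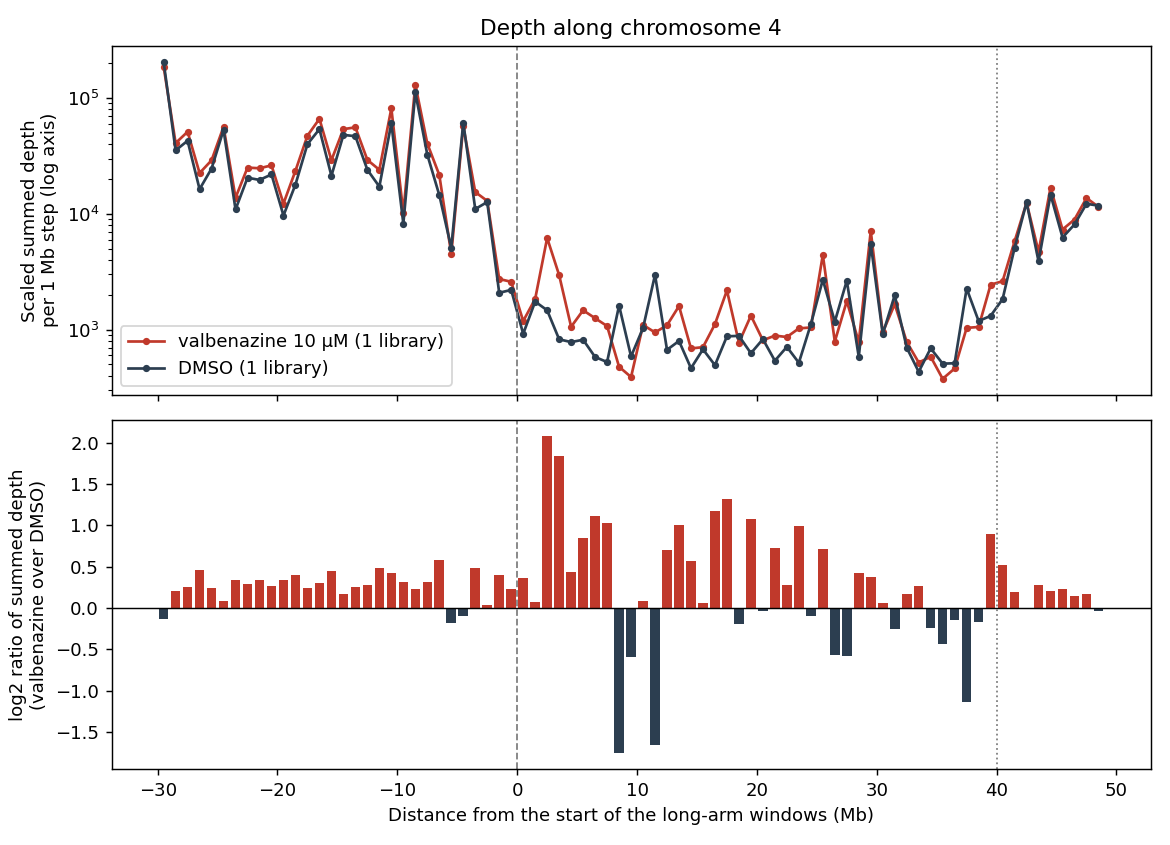
Upper panel: summed depth of each 1 Mb step of chromosome 4 after scaling both libraries to the same total, on a log axis, with valbenazine in red and DMSO in dark blue (1 library each). Lower panel: log2 ratio of the 2 values, valbenazine over DMSO, with red bars above 0 and blue bars below. The x axis is the distance from the start of the long-arm windows, with the same dashed and dotted lines at 0 and 40 Mb, and the last step holds 94 windows. In the first 40 Mb the bars run from -1.76 to 2.07, and before the arm from -0.18 to 0.58.

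The step with the highest ratio began at 32000001, with a summed depth of 6341 in valbenazine and 1430.5 in DMSO, a log2 ratio of 2.07. The next, from 33000001, had 3029.5 and 803 (log2 ratio 1.84). The steps from 47000001, with 2235.5 and 852, and from 46000001, with 1142 and 480, followed at 1.32 and 1.18. Lowest was the step from 38000001, with 489.5 in valbenazine and 1573 in DMSO, a log2 ratio of -1.76. The step from 41000001 had 968.5 and 2896 (log2 ratio -1.65), and the step from 67000001 had 1060 and 2206 (log2 ratio -1.13). Steps far apart in the 2 libraries thus lay in both directions, with 8 at least 2-fold higher in valbenazine and 3 lower under this scaling. Neighbouring steps among them are not separate observations. A stretch described below (32651001 to 33089000) crosses the limit between the steps from 32000001 and 33000001. Another (46940001 to 47090000) crosses that between the steps from 46000001 and 47000001. Stretches from 41264001 to 41682000 and from 67004001 to 67311000 lie in 2 of the low steps.

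The libraries also covered partly different windows of the arm. In the first 40 Mb 9862 windows were covered in both, which is 59.2% of those covered in valbenazine and 69.2% of those covered in DMSO. Below 30 Mb the shared windows made up 90.0% of those of valbenazine and 92.5% of those of DMSO, and from 70000001 they made up 87.7% and 92.8%. Over all windows of the tracks they made up 86.6% and 91.7%. Valbenazine alone covered 6803 windows of the first 40 Mb, with a median depth of 1 and a highest of 20, and DMSO alone covered 4380, with a median of 2 and a highest of 17. Of all covered windows there, 39.5% in valbenazine and 39.2% in DMSO had a depth of 1, the lowest value above 0. Whether equally shallow windows elsewhere overlap as little was not tested. Neither library covered 18955 windows of the first 40 Mb (47.4%), against 21.8% of the windows below 30 Mb and 28.5% of all windows. The longest stretch with no depth in either library was 801 kb (45634001 to 46435000), against 91 kb below 30 Mb and 31 kb from 70000001.

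Much of the coverage lay in long plateaus, which are runs of adjacent windows with exactly the same value. In the first 40 Mb, plateaus of at least 20 windows made up 41.4% of the covered windows in valbenazine and 42.0% in DMSO, against 34.2% and 35.6% below 30 Mb. Plateaus of at least 100 windows made up 8.81% in valbenazine and 14.7% in DMSO, against 3.27% and 2.87% below 30 Mb, and there were 0 from 70000001. The longest in valbenazine spanned 266 kb at a depth of 1 (51697001 to 51963000). In DMSO it spanned 197 kb, also at a depth of 1 (56702001 to 56899000). Below 30 Mb the longest plateau was one of 175 kb at a depth of 15 in valbenazine and one of 137 kb at a depth of 10 in DMSO, and these 2 overlap. On the other numbered chromosomes the longest spanned 444 kb in valbenazine and 360 kb in DMSO. Plateaus of at least 100 windows made up 5.16% and 5.06% of the covered windows there. A plateau of this kind may carry the same reads in all its windows, so the covered share counts such a stretch many times over. Without plateaus of 20 or more windows, 24.4% of the windows of the first 40 Mb were covered in valbenazine and 20.7% in DMSO, against 47.9% and 45.7% below 30 Mb.

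Broad blocks were then defined as at least 50 adjacent windows with a depth of at least 4 in 1 or both of the libraries. The first 40 Mb held 12 such blocks, of 55 to 467 kb. They took up 6.72% of the windows and held 40.8% of the summed depth in valbenazine and 27.7% in DMSO. From 70000001 there were 22 such blocks, of 50 to 243 kb, and below 30 Mb 98. A shallow block can pass this limit through the library in which it is deeper alone, so how often the blocks differ between the libraries is set in part by their definition and is not counted here. The limits for a block were set after these values had been seen, and the blocks are given as a description of where the depth lay.

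The block with the largest difference in summed depth spanned 438 kb (32651001 to 33089000). Over its length the median was 17 in valbenazine (quartiles 16 and 17) and 3 in DMSO (quartiles 2 and 3). Depth was higher in valbenazine in 435 of the 438 windows, but adjacent windows may carry the same reads and are not separate observations. The block was picked for its large difference, and most of its windows met the block limit through valbenazine alone. This count and the log2 ratio that follows are thus set in part by that choice, and are given as a description. The summed depth was 7325 in valbenazine and 1270.5 in DMSO, a log2 ratio of 2.45. In the 10 windows before it the median depth was 0 in both libraries, and in the 10 windows after it 1 in both. The difference was thus nearly constant over most of the block, but not at its start. In its first window the depth was 3 in valbenazine and 7 in DMSO, and 17 kb farther on it was 19 and 9. At the end valbenazine fell from 16 to 5 and then to 1, and DMSO from 2 to 1. In both libraries 12 windows of the block differed from both neighbours.

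**Figure D4:**
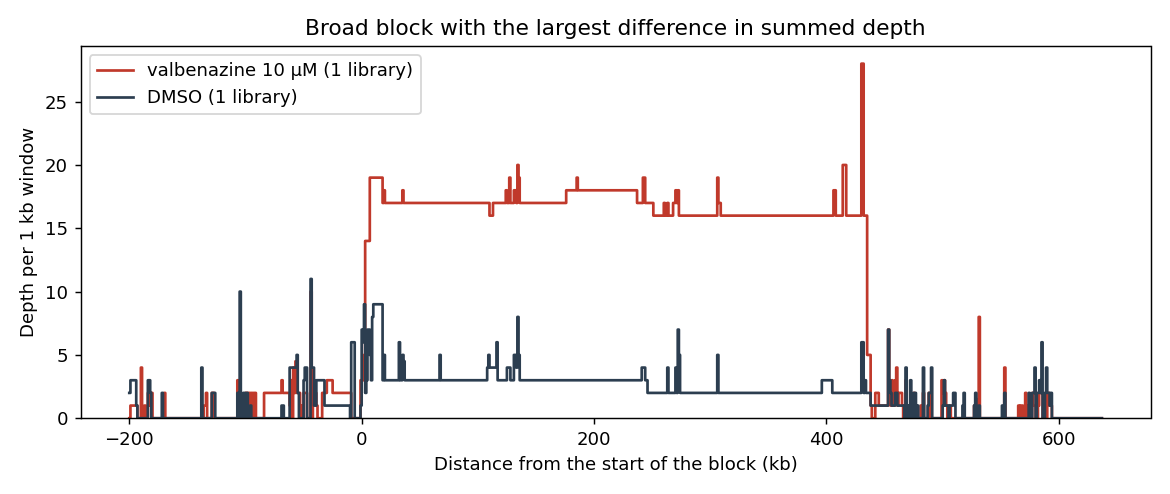
Depth per 1 kb window, as deposited, along the 438 kb block and 200 kb on either side, against the distance from the start of the block, with valbenazine in red and DMSO in dark blue (1 library each). Past the first windows of the block valbenazine stays near its median of 17 and DMSO near its median of 3, with short peaks. In those first windows DMSO is higher than later, and both libraries are low outside the block.

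Several other blocks of the first 40 Mb were covered chiefly in 1 of the libraries. Each of these met the block limit, a depth of 4, through its deeper library. Their one-sided coverage and ratios are thus set in part by how blocks were defined, and are given as a description. In valbenazine the block from 33873001 to 34127000 had a median depth of 6 and in DMSO of 0 (log2 ratio of summed depth 3.50), and the block from 35849001 to 36133000 had medians of 4 and 0 (log2 ratio 2.60). The block from 46940001 to 47090000 had 9 in valbenazine and 1 in DMSO (log2 ratio 2.82). The opposite was seen from 41264001 to 41682000, where the median was 1 in valbenazine and 5 in DMSO (log2 ratio -2.12), from 61720001 to 61819000, with 0 and 4 (log2 ratio -2.55), and from 67004001 to 67311000, with 1 and 4 (log2 ratio -1.87). The longest block, of 467 kb (59028001 to 59495000), was covered in both libraries, with a median of 15 in valbenazine and 8 in DMSO and a log2 ratio of 0.50.

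Single windows were compared by a log2 ratio of valbenazine to DMSO after 9.03 had been added to each scaled depth. This pseudocount is the median, over the whole tracks, of the mean scaled depth of covered windows. Windows with a mean scaled depth of at least that value were compared, and the ratio understates differences at low depth. On the long arm 2593 windows (5.39%) were deep enough, of which 1114 lay in the first 40 Mb, against 43.1% of the windows below 30 Mb. Of the 2593 windows, 361 (13.9%) had at least 2-fold more depth in valbenazine and 36 (1.39%) had at least 2-fold less. The same calls were made for 7.73% and 1.05% of all 480994 windows compared, and for 1015 and 130 of the 12936 compared below 30 Mb. A window can pass the depth limit through its deeper library alone, on the arm and elsewhere. These counts are thus set in part by that limit, and are given as a description. Under median-ratio scaling 49 of 2580 windows of the arm (1.90%) were higher and 82 (3.18%) lower. Over all windows that scaling gave 3.53% higher and 2.37% lower.

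Most of the windows called higher lay in 1 stretch. The 438 kb block held 236 of the 299 windows of the first 40 Mb that were 2-fold higher, and without it 125 of 2319 windows of the arm (5.39%) were higher and 36 lower. All 12 blocks together held 285 of the 299. Outside the blocks the first 40 Mb had 285 windows deep enough to compare, of which 14 were 2-fold higher and 26 lower. Their log2 ratios had a median of -0.11 and quartiles of -0.62 and 0.17. A block can enter through its deeper library alone, so this split of calls is set in part by how blocks were defined. The blocks from 41264001, 61720001 and 67004001, deeper in DMSO, held 0 windows deep enough to compare. The median over the long arm was 0.25, the same to 2 decimals as over all windows compared (0.25). It was 0.46 in the first 40 Mb and 0.04 from 70000001. Split by mean scaled depth, the median in the first 40 Mb was 0.46 under 30 (1058 windows), -0.31 from 30 to 100 (39 windows) and 0.39 from 100 (17 windows). Over all windows compared these medians were 0.30, 0.25 and 0.10. In the first 40 Mb the 17 windows are 2 runs, of 13 windows (median 0.42) and 4 windows (median -0.58). The 438 kb block and the longest block held 274 and 455 of the 1058. These medians thus describe a few stretches, and a dependence on depth was not tested. Among the 383 windows of the arm unlike both neighbours in both libraries the median was -0.04, with 13 windows (3.39%) 2-fold higher and 14 (3.66%) lower. No share over all windows of the tracks is given for this filter, so whether the arm differs from them under it was not tested.

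Deep signal on the arm was confined to few places, described here as runs of adjacent windows with a mean scaled depth of at least 100. There were 16 runs with 144 windows in all, or 0.333 per Mb, against 185 runs or 6.17 per Mb below 30 Mb. The first 40 Mb had 2 of them and the remainder 14. Of the 16 runs 8 were isolated, with no other window that deep within 50 kb, against 53 of 185 below 30 Mb. The runs held 24.98% of the arm's summed depth in valbenazine and 29.0% in DMSO. Below 30 Mb the runs held more of that region's summed depth, 64.0% in valbenazine and 68.5% in DMSO. By the ratio, 0 of the 16 runs differed by 2-fold, with median log2 ratios of -0.58 to 0.56, 9 above 0 and 7 below. These signs, and those of the runs below, hold for equal summed depth, and were not counted under the other scalings. Those shift log2 ratios of summed depth by -0.32 and -0.31, and ratios of windows, which include the pseudocount, by somewhat less. Only the runs from 55814001 (0.42) and 77557001 (0.56) had ratios above 0 larger than these shifts. Below 30 Mb 3 of 185 runs differed by 2-fold.

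The 2 deep runs of the first 40 Mb stood apart from any other deep window. A run of 4 windows (57106001 to 57110000) had a depth of 284 to 385 in valbenazine and 428 to 539 in DMSO, a median log2 ratio of -0.58, the lowest of the 16. In the 10 windows on each side the median depth was 0 in valbenazine and 1 in DMSO. A run of 13 windows (55814001 to 55827000) had 154 to 177 in valbenazine and 107 to 126 in DMSO, a median log2 ratio of 0.42, with flanks at 3.5 and 0. These flanks pool unlike sides, since the run is the end of a broad block of 103 windows (55724001 to 55827000). Over that block the median depth was 20 in valbenazine and 5 in DMSO, and the lowest was 6 and 0. As deposited, the ranges of the 2 libraries do not overlap in either run, and the direction is opposite. Windows of a run may carry the same reads, so these ranges do not measure precision. Whether the ranges stay apart under the other scalings, and how often those of other runs do, was not tested. The runs lie 1279 kb apart, and each is the nearest deep window to the other.

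The deepest run lay close to the chromosome's end (78023001 to 78026000). Its 3 windows had depths of 2419.5 to 3662.5 in valbenazine and 2160 to 3592 in DMSO, a median log2 ratio of -0.05, with flanks at 5 and 9. Next to it the run from 78008001 to 78010000 had 1067 and 1234 in valbenazine and 871 and 908 in DMSO (log2 ratio 0.29). Both were sharp peaks on a low floor in both libraries. With these, 6 runs lie between 77931001 and 78026000, among them the run from 77975001 to 77979000 with a median of 392.5 in valbenazine and 309 in DMSO (log2 ratio 0.26) and the run from 77993001 to 77997000 with 170 and 201 (log2 ratio -0.22). The run from 77931001 to 77932000, a single window, had 124 in valbenazine and 144 in DMSO (log2 ratio -0.27).

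Farther inward, runs of 1 to 37 windows were spread over several Mb. The longest had 37 windows (72748001 to 72785000), with a median depth of 162 in valbenazine and 171 in DMSO and a median log2 ratio of -0.24. One of 23 windows (74087001 to 74110000) had 260 and 189 (log2 ratio 0.21), with flanks at 0 in both libraries. A run of 3 windows (74958001 to 74961000) had 365 in valbenazine and 342 in DMSO in each of its windows (log2 ratio 0.02), and one of 10 windows beside it (74943001 to 74953000) had medians of 159 and 142 (log2 ratio 0.08). A single deep window (76587001 to 76588000) had 173 and 186 (log2 ratio -0.17). The highest ratio among the runs was that of 3 windows from 77557001 to 77560000, with 133 to 170.5 in valbenazine and 83 to 125 in DMSO, a median log2 ratio of 0.56.

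**Figure D5:**
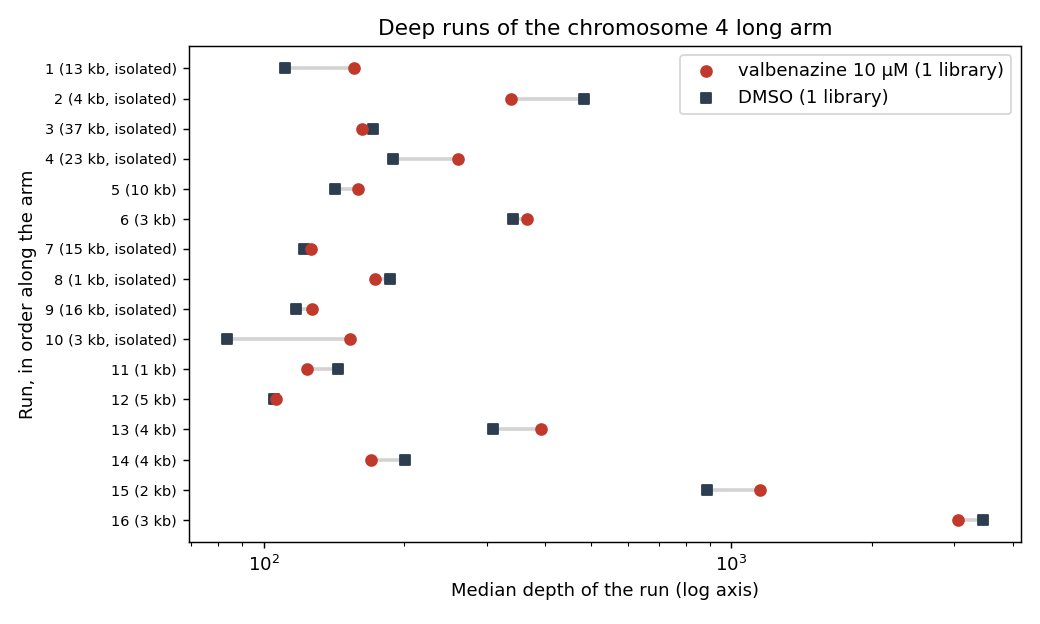
Median depth, as deposited, of the 16 deep runs of the long arm on a log axis, listed from the start of the arm at the top to its end at the bottom with their length in kb. Red circles are valbenazine and dark blue squares DMSO (1 library each), joined by a grey line. The pairs lie close together over medians of 106 to 3056 in valbenazine and 83.5 to 3451 in DMSO, with circles to the right of the squares in some runs and to the left in others.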

How the data were processed

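RNA from 2 pools of whole zebrafish larvae was sequenced as 1 library per group (valbenazine and DMSO). For each library the authors deposited a signal track of depth per 1000 bp window, with each value 0 or a multiple of 0.5. HISAT2 and the build mm10 are named per the submitters' processing notes, but the tracks hold 25 numbered zebrafish chromosomes, and the 78094 windows of chromosome 4 were read as GRCz11. The sources used here do not say how a window's depth was computed, from how many reads, or how reads with several matches were treated, so precision is unknown and no interval was computed. Positions count from 1. Both tracks were scaled to the same summed depth (total 61750003.5 in valbenazine and 58693226.5 in DMSO). The runs named were the 10 deepest and those with the 5 highest and 5 lowest ratios. The region, the lists and the limits were chosen with earlier results of these data known. Gene values were not analysed here, since no annotation of the build was used. Alternatives covered scaling (TMM trimmed 30% of ratios and 5% of levels at each end), pseudocount, depth filter, region limits, run limits, step size and windows unlike both neighbours. Simulated data were used to test the calling of 2-fold changes in single windows with a mean scaled depth of at least 100. The joining of adjacent windows into runs was tested on a short made-up series. The sums over 1 Mb, the blocks, the plateaus and calls at lower depth were not tested in this way. Python 3.11.15, numpy 2.4.6, pandas 2.3.3 and matplotlib 3.10.9 were used.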

Additional observations from a re-analysis of the deposited data

How the results depend on the processing

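No paired analysis was possible because there is 1 library per group, which also leaves no replicate to omit. Alternatives based on plateaus and on leaving out the 438 kb block were chosen after seeing the data. The covered share of the arm (47.8% in valbenazine and 42.0% in DMSO) was 32.6% and 28.8% when covered meant a depth of 2 or more, 12.2% and 9.60% with 5, and 6.42% and 3.66% with 10. It was 4.03% and 3.97% counting covered windows unlike both neighbours in both libraries, a filter that in part sets these shares alike. Outside plateaus of 20 or more windows it was 30.7% and 26.6%. It was 41.7% and 35.6% when the arm ended at 70 Mb, 48.3% and 42.7% when it began at 28 Mb, and 47.3% and 41.5% without the block. The log2 ratio of summed depth (0.22) turned under median-ratio scaling (-0.10) and TMM scaling (-0.086), and was -6.1e-05 in windows unlike both neighbours. It was 0.35 with the end at 70 Mb, 0.15 with the start at 35 Mb, 0.25 without the 10 deepest windows, 0.16 without the block, and 0.20 with the end at 70 Mb and without the block. The median log2 ratio of compared windows (0.25), with windows 2-fold higher (361) and lower (36), was -0.012, 49 and 82 by median-ratio scaling. TMM scaling gave -0.0039, 49 and 82. A smaller pseudocount gave 0.31, 466 and 82, and a larger one 0.13, 3 and 2. No depth filter gave 0.11, 555 and 69, and a higher filter, which leaves 404 windows, gave 0.077, 12 and 9. Windows unlike both neighbours gave -0.042, 13 and 14. The end at 70 Mb gave 0.46, 299 and 26, the start at 28 Mb 0.23, 367 and 39, and the start at 35 Mb, which removes the block, 0.17, 121 and 35. Without the block it was 0.15, 125 and 36, and with the end at 70 Mb as well 0.42, 63 and 26. That last set still holds the longest block (59028001 to 59495000). Deep runs (16, of which 8 isolated) numbered 37 and 15 with the depth limit at 50, 8 and 3 with it at 200, and 13 and 7 with at least 3 windows. Of 49 steps, the last one partial, 33 were higher in valbenazine, against 20 under median-ratio scaling, 20 under TMM scaling and 18 in windows unlike both neighbours, and 18 of 25 steps of 2 Mb. The scalings shift every log2 ratio of summed depth by -0.32 and -0.31, and ratios of single windows, which include the pseudocount, by less. Beyond what an alternative's construction shows the cause was not tested.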

Other observations

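The single windows of the arm with the most extreme ratios, chosen after their values were seen, included edges of covered stretches and single peaks. The window from 76575001 had a depth of 86 in valbenazine and 1 in DMSO (log2 ratio 3.21), and the next window had 86 and 88. The window from 59917001 had 67 and 2 (log2 ratio 2.75), with neighbours at 1 and 2 in valbenazine and at 2 in DMSO. Lowest was the window from 75451001, with 1 in valbenazine and 47 in DMSO (log2 ratio -2.52), where the window before it had 39 and 51.5. A short group from 41177001 had 8 in valbenazine and 42 in DMSO (log2 ratio -1.63), with the same values in the window after it.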
